A study of Homo sapiens with 12 samples.

Results

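The genes described here encode the proteasome, its activators and its assembly chaperones, in Huh7 cells with and without knockdown of FAM111B. Members were the rows of the deposited Huh7 table whose symbol begins with PSMA, PSMB, PSMC, PSMD, PSME, PSMF or PSMG followed by a digit and whose description does not name a pseudogene. This gave 55 of the 60666 listed genes, and 51 of them reached at least 1 TPM (a level scaled to transcript length and to the library total) in at least 3 of the 6 libraries and were tested. Huh7 is an established hepatocellular carcinoma (HCC) line. The 3 control libraries (NC1 to NC3) came from Huh7 cells given a control construct, and the 3 shFAM111B libraries (KD1 to KD3) from Huh7 cells carrying a lentiviral short hairpin RNA against FAM111B, selected for stable knockdown. All were grown in the same medium with 10% foetal bovine serum, and poly(A) RNA was sequenced. A single shFAM111B construct is named, and the labels do not say that replicates were separate cultures, so the p-values below measure only the spread between these libraries. The Hep3B libraries of the study were not analysed here.

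The 26S proteasome degrades proteins tagged with ubiquitin. Its barrel-shaped 20S core has outer rings of alpha subunits, which gate the entrance, and inner rings of beta subunits, some of which cut peptide bonds. The 19S particle caps the core, binds ubiquitin chains through its non-ATPase subunits and unfolds substrates with a ring of ATPases, while 11S and PA200 caps and dedicated chaperones open or help to build the core. Subunits are needed in fixed proportions, and the transcription factor NFE2L1 (NRF1), with small MAF partners, drives many of their genes through antioxidant response-type elements in the promoter.

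FAM111B (ENSG00000189057, chr11:59107185-59127410, GRCh38), the targeted gene, was at 7.84, 8.29 and 7.99 TPM in the controls and at 0.96, 1.13 and 0.84 TPM in the shFAM111B libraries. The groups did not overlap, and the log2 fold change, shFAM111B minus control on the log2(TPM + 1) scale used throughout, was -2.20 (SE 0.11, limma with Benjamini-Hochberg (BH) adjustment, adjusted p = 6.09e-06). All 10 hepatocyte markers examined were detected, with a summed level of 27947 to 28518 TPM in the controls and 41574 to 46536 TPM after knockdown. In limma 4 of them rose, AFP from a mean of 7274 to 23062 TPM and APOA1 from 3233 to 7010 TPM with GPC3 and TTR, and 6 fell, ALB, APOB, FGB, HNF4A, SERPINA1 and TF. Of 8 leukocyte markers 3 were tested, 4 stayed under 1 TPM in every library (MS4A1 at 0) and PTPRC reached 2.39 TPM in NC3 alone. Of the tested ones, LYZ rose from a mean of 262 to 304 TPM and CD68 from 16.3 to 22.6 TPM in limma. CD14, at 3.73 and 2.53 TPM, did not pass. Of 7 fibroblast and endothelial markers 5 stayed under 1 TPM in all, LUM rose from a mean of 0.88 to 2.79 TPM and PECAM1 (1.82 and 2.73 TPM) did not pass. Transcripts of the mitochondrial chromosome took 196140 to 201464 TPM in the controls and 73237 to 78883 TPM in the shFAM111B libraries, and short non-coding RNA took 1645 to 4833 TPM in the controls, 46622 and 68689 TPM in KD1 and KD2 and 5007 TPM in KD3. Their part in the changes below was not tested. Sequencing depth is unknown, since TPM hold none.

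The promoter stretches of PSMB3, PSME1, PSMD12 and PSMD5 are shown because these genes rose or fell under every library scaling compared and each stretch holds the letters TGACNNNGC, the core of the antioxidant response-type element that NFE2L1 with a small MAF protein can bind. The stretches come from RefSeq promoters on GRCh38.p14, lie upstream of the annotated start and are written 5′ to 3′ along the gene, with the motif in capitals.
PSMB3, higher after knockdown, chr17:38752611-38752671, plus strand: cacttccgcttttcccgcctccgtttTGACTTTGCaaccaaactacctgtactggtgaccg
PSME1, higher after knockdown, chr14:24136082-24136142, plus strand: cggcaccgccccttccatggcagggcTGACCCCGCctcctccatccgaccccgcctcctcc
PSMD12, lower after knockdown, chr17:67366708-67366768, minus strand: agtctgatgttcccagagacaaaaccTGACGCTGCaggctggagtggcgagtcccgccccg
PSMD5, lower after knockdown, chr9:120843022-120843082, minus strand: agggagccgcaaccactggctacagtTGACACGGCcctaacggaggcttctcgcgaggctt

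The motif was thus present upstream of genes that moved in opposite directions under these scalings. Other members met the same rule and are not shown, so the printed stretches do not tell how often the motif goes with either direction. With the genome-wide trend with transcript length and expression removed, PSMB3 (-0.30), PSME1 (-0.51), PSMD12 (-0.85) and PSMD5 (-1.46) all lay below 0. Of the other members with the motif that rose under every scaling, PSMC5 (0.37), PSMD9 (0.40), PSME2 (0.27) and PSMC4 (-0.04) then lay above the all-gene median, PSMC4 alone below 0. PSMG2 (-1.33) and PSMA3-AS1 (-1.09), which hold the motif and fell under every scaling that gave a value, lay below that median. Windows from 250 bases before to 50 bases after the start were found for 49 of the 55 members, and PSMA7, PSMB1, PSMB6, PSMB7, PSMD4 and PSMG3 had none. Searched on both strands, TGACNNNGC occurred in 16 of the 60 member windows (26.7%) and in 4687 of all 35116 windows (13.3%). Counted per gene, with a match in any of its windows, it was found for 7 of 17 members that rose, 5 of 20 that fell and 4 of 8 that did not pass the test. CCAAT, the letters read by the factor NF-Y, occurred in 41.7% of member windows and 34.6% of all windows. Counted per gene, it was found for 9 of 17 members that rose and 10 of 20 that fell. No share per gene was taken over all genes, so the counts per gene cannot be set against the shares of windows. A match is only these letters in this window and shows no binding.

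After FAM111B knockdown the proteasome genes did not move as a block. At an adjusted p under 0.05 in limma, 23 of the 51 tested members rose (45.1%) and 20 fell (39.2%), against 21.1% of all 14394 tested genes that rose and 50.9% that fell. The median log2 fold change was 0.13 over the members and -0.36 over all tested genes. All 7 constitutive subunits of the 20S beta rings rose, whereas 7 of 11 19S non-ATPases fell, and the ATPases, alpha subunits, activators and chaperones each held genes of both directions. By the 2-fold limit that the study states, together with P under 0.05, PSMA5 and PSMG4 rose (6.82% of all tested genes did) and PSMD12, PSME3, PSMD5 and the antisense RNA PSMA3-AS1 fell (23.7%). The libraries of both groups did not overlap for 24 higher and 20 lower members, against 22.5% and 52.8% of all tested genes.

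**Figure D1:**
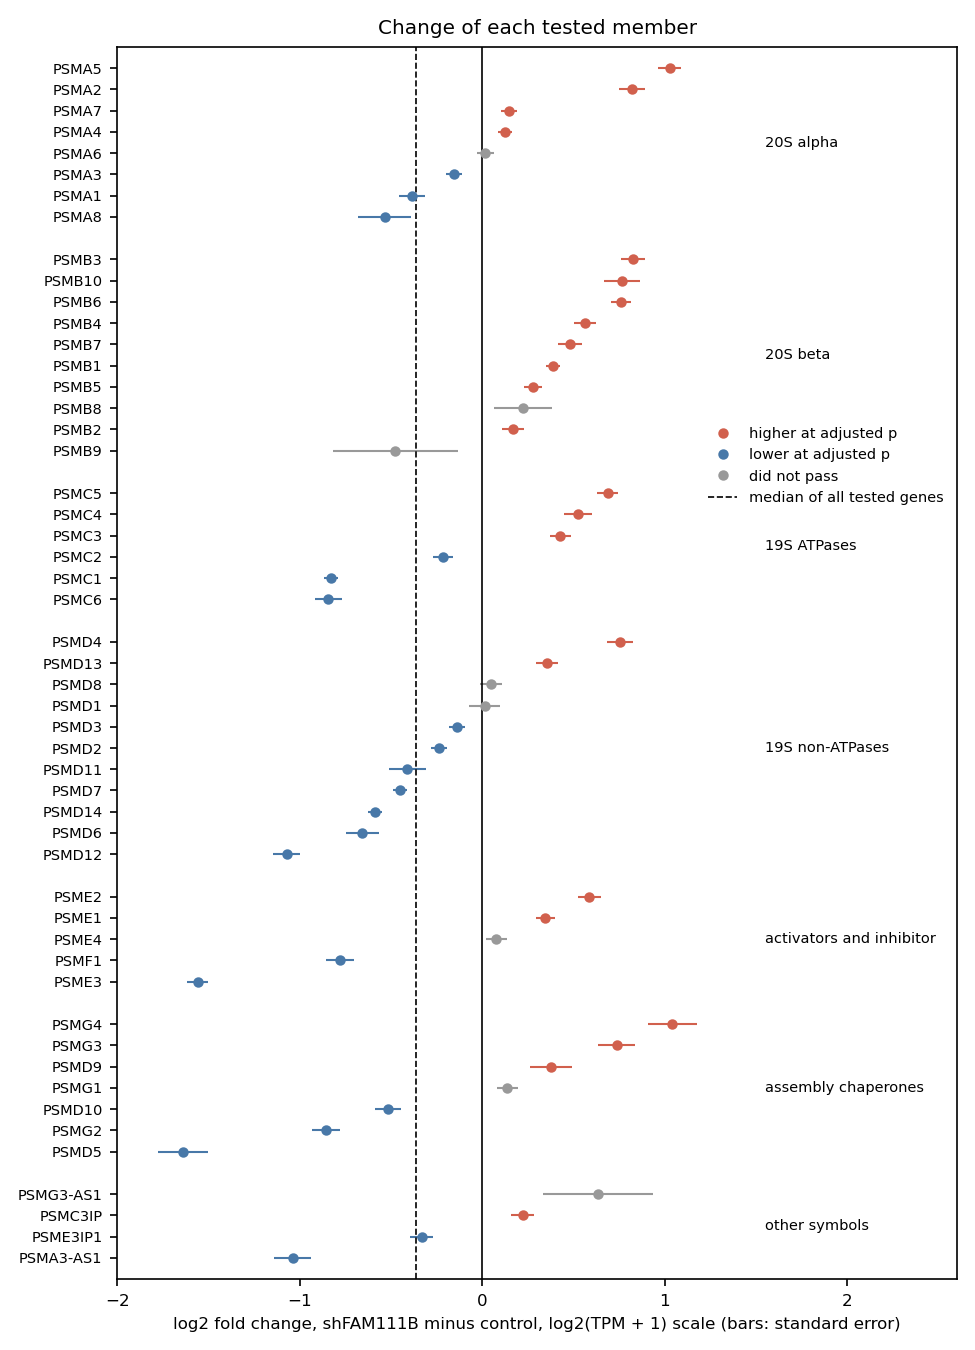
Log2 fold change (shFAM111B minus control, x axis, log2(TPM + 1) scale) with its standard error for each of the 51 tested members, grouped by class, with colours for the limma call and a dashed line at the median of all tested genes, -0.36. The values ran from -1.64 for PSMD5 to 1.04 for PSMG4, and the 20S beta class alone held no member that fell past the test under the deposited scaling.

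How many members rose depended on the scaling of the libraries. The counts of higher and lower members were 34 and 9 under median-of-ratios scaling, 34 and 10 under upper-quartile scaling, 35 and 8 with the library median subtracted, 20 and 21 under quantile normalization, and 19 and 19 among 49 members when nuclear protein-coding genes alone were rescaled. The median of all tested genes was 0.03, -0.01, 0.17, -0.03 and -0.57 in that order. Of all tested genes, 35.8%, 34.3%, 41.6%, 32.5% and 17% rose and 35.2%, 36.4%, 29.4%, 36.8% and 61.5% fell in these settings. Relative to the all-gene median, the member median lay 0.52, 0.53, 0.49, 0.02 and 0.57 higher, against 0.49 higher in the deposited TPM. Across the deposited values and these settings 15 members rose past the test each time, 8 fell each time and 28 were mixed. The 15 were PSMA2, PSMA5, PSMB3, PSMB6, PSMB10, PSMC3, PSMC4, PSMC5, PSMD4, PSMD13, PSME1, PSME2, PSMD9, PSMG3 and PSMG4. The 8 were PSMC1, PSMC6, PSMD12, PSME3, PSMF1, PSMD5, PSMG2 and PSMA3-AS1, the last without a value in the protein-coding setting.

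Proportions within a library do not change when the library is multiplied by a single factor, although quantile normalization can change them. The values below are from the deposited TPM. The summed level of the 20S, 19S, activator and chaperone genes was 9038, 9020 and 9169 TPM in the controls and 10553, 10281 and 11188 TPM in the shFAM111B libraries. Beta subunits made up 30.9%, 30.9% and 31.1% of that sum in the controls and 38.3%, 37.9% and 39.2% after knockdown. Every shFAM111B library thus lay above every control. The share of the 19S non-ATPases went from 21.2% ± 0.12 to 17.7% ± 0.054 (mean ± SD, n = 3 each), that of the assembly chaperones from 4.14% ± 0.12 to 3.27% ± 0.041, and that of the ATPases from 12.4% ± 0.21 to 11.3% ± 0.29. Alpha subunits stood at 23.2% ± 0.093 and 21.9% ± 0.56, and activators with the inhibitor at 8.05% ± 0.34 and 7.42% ± 0.21.

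**Figure D2:**
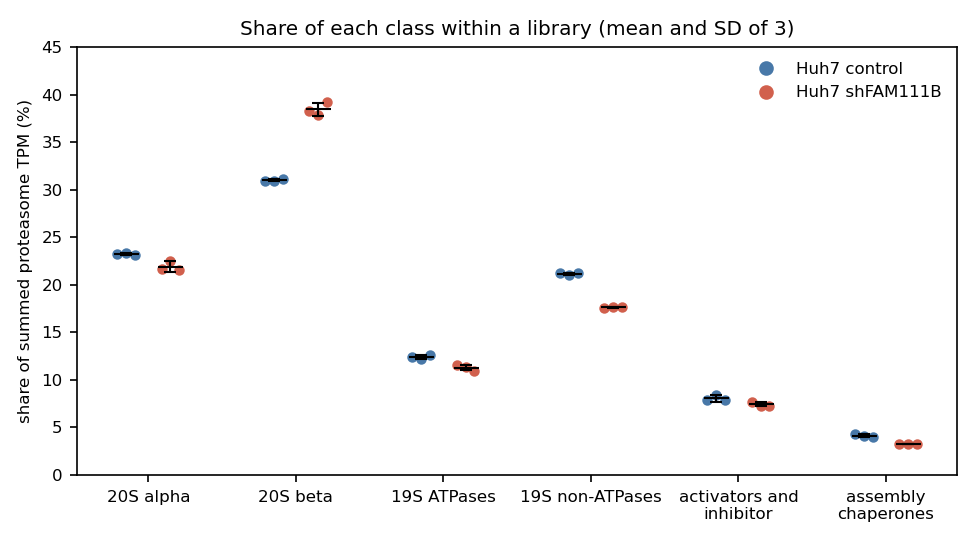
Share of each class in the summed TPM of the proteasome genes (y axis, percent) in each library, with the mean and SD of 3 libraries per group. The beta share lay at 30.9% to 31.1% in the controls and 37.9% to 39.2% in the shFAM111B libraries, while the 19S non-ATPase share was lower in every shFAM111B library than in every control.

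In the alpha rings, 4 of 8 genes rose, 3 fell and PSMA6 did not pass, against 21.1% of all tested genes that rose and 50.9% that fell. PSMA5 (chr1:109399031-109426427), a subunit of the alpha ring, was at 49.34, 54.99 and 54.28 TPM in the controls and 103.59, 108.64 and 113.79 TPM after knockdown. The groups did not overlap, and the log2 fold change was 1.03 (SE 0.063, 2.04-fold higher, limma BH-adjusted p = 1.12e-05). PSMA2 (chr7:42916857-42932223) went from 196.81, 219.38 and 183.97 TPM to 347.7, 340.22 and 371.72 TPM, again without overlap. Its log2 fold change was 0.82 (SE 0.073, limma BH-adjusted p = 5.35e-05), and exons of MRPL32 on the other strand and of a readthrough gene on the same strand overlap it. PSMA8 (chr18:26133852-26193355), the alpha subunit otherwise known from testis, stood at only 8.52, 7.85 and 9.24 TPM in the controls and at 7.02, 4.95 and 4.96 TPM after knockdown. It fell by 0.53 on the log2 scale (SE 0.14, limma BH-adjusted p = 0.0128), and this call was lost under each of the other scalings except the protein-coding one. The remaining alpha genes had log2 fold changes from -0.39 for PSMA1 to 0.15 for PSMA7.

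Alpha subunits enter the ring once each, yet their transcripts differed in level. PSMA5 was the lowest of PSMA1 to PSMA7 and PSMA4 the highest in every library, and the highest exceeded the lowest 11.9, 10.6 and 10.6 times in the controls and 5.97, 5.84 and 5.71 times after knockdown. The range was narrower in each shFAM111B library than in any control. The spread over all of PSMA1 to PSMA7 (SD as a percentage of the mean) changed little, from 60.9% ± 1.3 to 58.8% ± 1.5 (SD, n = 3 each). In PSMB1 to PSMB7 the range instead widened, from 4.54 ± 0.12 to 5.96 ± 0.088 times. PSMA5 made up 2.36%, 2.62% and 2.57% of the ring's TPM in the controls and 4.54%, 4.70% and 4.74% after knockdown.

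**Figure D3:**
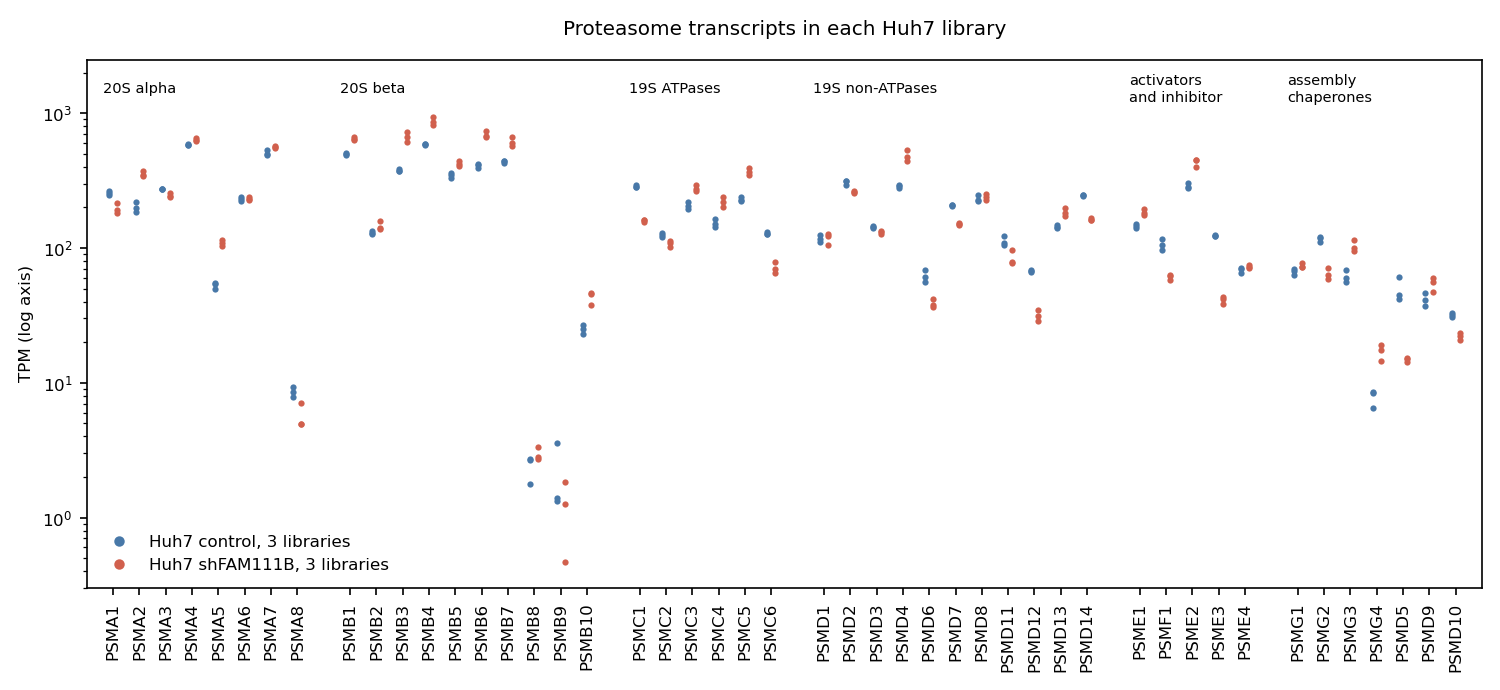
TPM (y axis, log scale) of the 47 tested 20S, 19S, activator, inhibitor and chaperone genes in each control and shFAM111B library, 1 point per library. PSMA5 rose toward the other alpha genes, the constitutive beta genes lay together above 100 TPM, and PSMB8 and PSMB9 stayed under 4 TPM in every library.

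The beta rings gave the most uniform class. All 7 constitutive genes, PSMB1 to PSMB7, rose (21.1% of all tested genes did), with log2 fold changes from 0.17 for PSMB2 to 0.82 for PSMB3. Their median was 0.48. PSMB3 (chr17:38752736-38764231), a structural beta subunit, was at 370.32, 369.22 and 386.28 TPM in the controls and at 668.28, 609.94 and 720.44 TPM after knockdown. Its groups did not overlap (log2 fold change 0.82, SE 0.065, limma BH-adjusted p = 3.16e-05). PSMB6 (chr17:4796144-4798503), the caspase-like catalytic subunit, rose from 391.44, 412.9 and 422.31 TPM to 667.06, 677.53 and 737.58 TPM (log2 fold change 0.76, SE 0.055, limma BH-adjusted p = 2.07e-05). PSMB7 (chr9:124353466-124415444), which holds the trypsin-like site, stood at 427.35, 444.06 and 442.15 TPM in the controls and 597.79, 569.17 and 670.14 TPM after knockdown (log2 fold change 0.48, SE 0.065, limma BH-adjusted p = 0.000435). PSMB5 (chr14:23016543-23035230), the chymotrypsin-like subunit and target of proteasome inhibitor drugs, moved the least of these catalytic genes, from 347.85, 331.57 and 360.84 TPM to 417.74, 405.82 and 438.17 TPM (log2 fold change 0.28, SE 0.050, limma BH-adjusted p = 0.00196). No library of one group reached the range of the other for any of the 4.

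All 7 constitutive beta genes also rose under median-of-ratios, upper-quartile and library-median scaling, but not under the other settings. Under quantile normalization the median of the 7 genes was 0.10, PSMB3 and PSMB6 alone among them kept an adjusted p under 0.05, and PSMB5 was at -0.01. With nuclear protein-coding genes alone rescaled it was 0.35. After the genome-wide trend with transcript length and expression was removed it was -0.25, against -0.38 over all genes. Within the constitutive beta genes, PSMB3 took 13.5% ± 0.18 of the summed TPM in the controls and 16.4% ± 0.49 after knockdown (SD, n = 3 each), PSMB6 14.7% ± 0.48 and 17.1% ± 0.45, and PSMB5 12.5% ± 0.40 and 10.4% ± 0.23.

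Interferon-type stimuli exchange PSMB5, PSMB6 and PSMB7 for PSMB8, PSMB9 and PSMB10 in the immunoproteasome. In these cells PSMB8 (chr6:32840717-32844703) was at 2.68, 2.74 and 1.78 TPM in the controls and 2.71, 2.82 and 3.31 TPM after knockdown, a difference that did not pass in limma (log2 fold change 0.23, SE 0.16, BH-adjusted p = 0.238). PSMB9 (chr6:32844136-32859585) was at 3.55, 1.33 and 1.39 TPM and at 1.84, 1.25 and 0.47 TPM, overlapping groups that also did not pass (log2 fold change -0.48, SE 0.34, limma BH-adjusted p = 0.246). Both were near the level at which genes were filtered, and their exons overlap each other on opposite strands. PSMB10 (chr16:67934502-67937087) was the most abundant of the immunosubunits, at 22.88, 25.13 and 26.78 TPM in the controls, and rose to 45.94, 37.83 and 45.53 TPM without overlap (log2 fold change 0.76, SE 0.098, limma BH-adjusted p = 0.00033). PSMB11, the thymus-specific beta subunit, was listed at 0 in 5 libraries and at 0.03 TPM in KD1.

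Set against its constitutive partner within each library, the log2 ratio of PSMB10 to PSMB7 was -4.08 ± 0.085 in the controls and -3.80 ± 0.11 after knockdown (SD, n = 3 each), a difference of 0.28 (two-sided exact permutation test, p = 0.1, 0.133 adjusted over the 4 ratios compared). The log2 ratio of PSMB9 to PSMB6 differed by -1.24 (exact permutation p = 0.1, 0.133 adjusted) and that of PSMB8 to PSMB5 by -0.05 (exact permutation p = 0.9, adjusted 0.9). With 3 libraries against 3 the smallest p this test can give is 0.1, so no ratio could pass 0.05. The difference for PSMB8 to PSMB5 was 0.01 without control replicate 1 and 0.05 without control replicate 2.

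All 6 ATPase genes changed, 3 in each direction, where 21.1% of all tested genes rose and 50.9% fell. PSMC5 (chr17:63827152-63832026) rose from 225.23, 222.6 and 238.92 TPM to 367.83, 348.33 and 391.15 TPM (log2 fold change 0.69, SE 0.056, limma BH-adjusted p = 3.79e-05). PSMC1 (chr14:90256495-90275429), the most abundant ATPase transcript of the controls at 291.79, 282.37 and 283.21 TPM, was at 162.07, 162.44 and 156.95 TPM after knockdown. It fell by 0.83 on the log2 scale (SE 0.040, 1.78-fold lower, limma BH-adjusted p = 4.89e-06), with the groups well apart. PSMC6 (chr14:52707172-52728587) fell by 0.84 on the log2 scale (SE 0.074, limma BH-adjusted p = 5.03e-05), from 132.1, 126.85 and 126.74 TPM to 69.82, 78.94 and 65.34 TPM. Of the rest, PSMC3 (0.43) and PSMC4 (0.52) rose and PSMC2 (-0.22) fell, the last turning upward under the scalings by median of ratios, upper quartile and library median. PSMC1 has 13 annotated pseudogene rows, of which 9 were at 0 TPM in every library. Only PSMC1P5 exceeded 1 TPM, at 99.24 TPM in NC1 and 11.82 TPM in KD1, where PSMC1 lay near its level in the other libraries of each group. Whether reads were split between such copies was not tested, and exons of NRDE2 overlap PSMC1 on the other strand.

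The ATPases also sit in the ring once each, and their transcripts drew apart. The highest exceeded the lowest 2.26, 2.34 and 2.26 times in the controls and 5.27, 4.41 and 5.99 times after knockdown, when PSMC5 was at the top and PSMC6 at the bottom. PSMC1 held 25.9%, 25.7% and 24.5% of the summed ATPase TPM in the controls and 13.3%, 13.9% and 12.8% after knockdown. PSMC5 went the other way, from 20.3% ± 0.33 to 30.6% ± 1.1 (SD, n = 3 each). In both the libraries of the groups were separate.

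Among the 11 other subunits of the 19S particle, 2 rose (18.2%), 7 fell (63.6%) and PSMD1 and PSMD8 did not pass. Of all tested genes 21.1% rose and 50.9% fell. The median log2 fold change of the class was -0.24, above the -0.36 of all tested genes. PSMD12 (chr17:67337916-67366627), a scaffold subunit of the 19S lid, was at 68.23, 67.68 and 65.93 TPM in the controls and 31.24, 34.72 and 28.77 TPM after knockdown. It fell by 1.07 on the log2 scale (SE 0.075, 2.10-fold lower, limma BH-adjusted p = 1.89e-05) and was lower under every scaling. PSMD6 (chr3:64010549-64024010), another lid subunit, went from 56.12, 61.02 and 68.25 TPM to 36.72, 42.13 and 37.53 TPM. Its fall by 0.66 on the log2 scale (SE 0.089, limma BH-adjusted p = 0.000452) kept its direction under every scaling but did not pass under median-of-ratios scaling (-0.21) or with the library median subtracted (-0.12). PSMD4 (chr1:151254703-151267479), the ubiquitin receptor RPN10, rose from 289.65, 277.28 and 290.65 TPM to 475.25, 442.41 and 535.26 TPM (log2 fold change 0.75, SE 0.072, limma BH-adjusted p = 7.77e-05). Control and shFAM111B libraries were separate for all 3 genes. PSMD14, the deubiquitinase RPN11, fell by 0.59, and the other members that fell had log2 fold changes from -0.45 for PSMD7 to -0.14 for PSMD3, while PSMD13 rose by 0.35. PSMD12 alone of this class was called lower under every scaling. PSMD2 and PSMD3 were called higher under median-of-ratios, upper-quartile and library-median scaling, at 0.18 to 0.39.

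The activators split by partner. PSME1 and PSME2 together form the cytoplasmic 11S cap that interferon induces, and PSME3 alone forms the nuclear one. PSME1 (chr14:24136158-24138967) rose from 139.87, 149.56 and 145.37 TPM to 182.62, 176.35 and 193.97 TPM (log2 fold change 0.34, SE 0.053, limma BH-adjusted p = 0.000828). PSME2 (chr14:24143362-24147570) rose from 278.09, 302.02 and 283.17 TPM to 448.54, 398.6 and 450.92 TPM (log2 fold change 0.59, SE 0.063, limma BH-adjusted p = 0.000135). PSME3 (chr17:42824385-42843758) instead dropped from 125.35, 123.09 and 121.85 TPM to 43.57, 41.66 and 38.54 TPM. The shFAM111B libraries lay far below the controls, and the gene fell by 1.56 on the log2 scale (SE 0.058, 2.95-fold lower, limma BH-adjusted p = 2.85e-06), with values from -1.69 to -1.03 over the other scalings. The log2 ratio of PSME1 to PSME3 within a library was 0.16, 0.28 and 0.25 in the controls and 2.04, 2.06 and 2.30 after knockdown, a difference of 1.90 (two-sided exact permutation test, p = 0.1, the smallest possible here, 0.133 adjusted over 4 ratios).

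PSME4 (chr2:53864067-53970840), the PA200 cap, was at 71.09, 69.92 and 64.89 TPM in the controls and 70.52, 71.81 and 75.03 TPM after knockdown. These groups overlapped and the gene did not pass (log2 fold change 0.08, SE 0.056, limma BH-adjusted p = 0.247), although it was called higher under the median-of-ratios, upper-quartile, quantile and library-median settings, at 0.24 to 0.61. PSMF1 (chr20:1113263-1189415), the PI31 protein that inhibits the 20S core in vitro, went from 96.78, 116.76 and 104.41 TPM to 63.4, 61.88 and 58.19 TPM. It fell by 0.78 on the log2 scale (SE 0.078, limma BH-adjusted p = 9.27e-05) without overlap. Exons on the other strand overlap PSME1 (EMC9), PSME2 (RNF31), PSME3 (BECN1) and PSME4 (ACYP2), and the sources used here do not say whether strand was used in counting.

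Assembly chaperones gave the widest range of changes. PSMD5 (chr9:120815496-120842984), a chaperone of the 19S base, was at 60.92, 44.98 and 41.84 TPM in the controls and 15.11, 14.31 and 15.29 TPM after knockdown. It fell by 1.64 on the log2 scale (SE 0.14, 3.12-fold lower, limma BH-adjusted p = 4.03e-05), the lowest value of any member. The other base chaperones differed in direction: PSMD10 (gankyrin) fell by 0.52 and PSMD9 rose by 0.38, and PSMD10 passed under none of the scalings other than the deposited TPM and the protein-coding setting. PSMG1 and PSMG2 form one pair that builds the alpha ring, and PSMG3 and PSMG4 another. PSMG2 (chr18:12658043-12725740) fell by 0.86 (SE 0.077, limma BH-adjusted p = 5.61e-05), from 119.31, 120.42 and 110.85 TPM to 58.81, 70.75 and 62.88 TPM, while its partner PSMG1 did not pass (log2 fold change 0.14). PSMG4 (chr6:3231403-3303373) rose from 8.47, 8.33 and 6.55 TPM to 17.52, 14.6 and 19.07 TPM (log2 fold change 1.04, SE 0.13, 2.06-fold higher, limma BH-adjusted p = 0.000349), and its partner PSMG3 rose by 0.74. Exons on the other strand overlap PSMG4 (SLC22A23 and TUBB2B) and PSMG2 (CEP76 and SPIRE1), and exons of WDR66 on the same strand overlap PSMD9. Whether reads of these genes were counted for the chaperones was not tested. PSMA5 and PSMG4 lay close to the 2-fold limit, and the count of members past it, 2 with all libraries, was 1 without control replicate 1, 1 without control replicate 3, 0 without shFAM111B replicate 3 and 3 at most. Their log2 fold changes stayed at 0.98 to 1.06 and 0.93 to 1.14 when single libraries were left out.

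The symbol rule also took in 7 genes that are not proteasome subunits or chaperones. PSMA3-AS1 (chr14:58265365-58298134), a long non-coding RNA antisense to the alpha gene, was at 40.36, 35.9 and 35.68 TPM in the controls and 19.53, 18.14 and 15.43 TPM after knockdown. It fell by 1.04 on the log2 scale (SE 0.10, limma BH-adjusted p = 7.98e-05) without overlap, while PSMA3 itself fell by 0.16 but was called higher under median-of-ratios (0.30), upper-quartile (0.26) and library-median scaling (0.38). PSME3IP1 (chr16:57152466-57186116), a protein that binds PSME3, went from 44.76, 48.54 and 48.35 TPM to 35.4, 38.45 and 38.01 TPM (log2 fold change -0.33, SE 0.062, limma BH-adjusted p = 0.00221), but turned to 0.11, 0.07 and 0.20 under median-of-ratios scaling, upper-quartile scaling and with the library median subtracted. PSMC3IP (chr17:42572315-42577831), a factor of meiotic recombination, rose from 19.56, 20.57 and 20.36 TPM to 22.71, 23.88 and 24.49 TPM (log2 fold change 0.22, SE 0.063, limma BH-adjusted p = 0.0159, and 0.0523 without control replicate 1). PSMG3-AS1 did not pass, and PSMB8-AS1, PSMD6-AS1 and PSMD6-AS2 stayed under 1 TPM in every library and were not tested.

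Transcript length moved with the changes, in the members and in all genes. Taking the longest annotated transcript, all 3 members of up to 1000 nt rose (PSMB3, PSMB6 and PSMB7). Of the 1478 tested genes of that length 42.2% rose and 15.8% fell, with a median log2 fold change of 0.43. From 1000 to 2000 nt 10 of 17 members rose and 6 fell, against 41.3% and 24.8% of all genes of that length (median 0.17). From 2000 to 4000 nt 6 of 18 rose and 8 fell, against 19.6% and 50.7% (median -0.32), and from 4000 to 8000 nt 4 of 13 rose and 6 fell, against 9.23% and 70.8% (median -0.78). In the longest class the member median, 0.02, lay above that of all genes, with PSMG4, PSMA2, PSMB2 and PSMA4 among those that rose. Spearman's rho between length and log2 fold change was -0.31 over the 51 members and -0.46 over 14251 tested genes, given as a description since all genes share the same 6 libraries. When the trend with length and mean level was removed, the member median was -0.30 and that of all genes -0.38, a gap of 0.08. The all-gene median of -0.36 was added back after the removal, so 0 was not the level of a typical gene. Of the 23 members that rose, 11 then lay below 0, and 0 of the 20 that fell lay above it. The 11 were PSMB3 (-0.30), PSMB6 (-0.25), PSMB7 (-0.44), PSMB5 (-0.45), PSMB1 (-0.10), PSME1 (-0.51), PSMC3 (-0.16), PSMC4 (-0.04), PSMA4 (-0.16), PSMA7 (-0.73) and PSMC3IP (-0.26). Of these, PSMB7, PSMB5, PSME1 and PSMA7 lay below the all-gene median of -0.38 and the others above it. Of the 20 that fell, PSMC2 (-0.33), PSMD11 (-0.35), PSMD3 (-0.30) and PSME3IP1 (-0.33) lay above that median. PSMD4 stood at 0.05 and PSMB10 at 0.14, while PSMA5 (1.09), PSMG4 (1.48), PSMA2 (0.70), PSME3 (-1.54), PSMD5 (-1.46) and PSMC1 (-0.89) kept their direction. The part of length in these results was not tested further.

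Genes that control or serve the proteasome without bearing a PSM symbol were taken from a list of 42, of which 41 were tested (DDI1 was at 0 in every library). In limma 7 rose (17.1%) and 28 fell (68.3%), against 21.1% and 50.9% of all tested genes, and the median log2 fold change was -0.50. The median length of the listed genes was 3790 nt. Of all tested genes 50.7% fell at 2000 to 4000 nt and 70.8% at 4000 to 8000 nt, so the 50.9% does not account for length. The clearest group was the transcriptional control of proteasome genes, in which 9 of 10 fell, 7 of them by at least 2-fold, and NFYB did not pass. NFE2L1 (chr17:48048329-48061487), the transcription factor of the proteasome genes, was at 76.98, 81.36 and 82.82 TPM in the controls and 23.72, 24.7 and 21.57 TPM after knockdown. It fell by 1.74 on the log2 scale (SE 0.068, 3.35-fold lower, limma BH-adjusted p = 3e-06), and no shFAM111B library came near the controls. Its small MAF partner MAFF (chr22:38200767-38216511) fell by 2.13 (SE 0.076, limma BH-adjusted p = 2.63e-06), from 53.56, 52.31 and 48.81 TPM to 10.14, 11.12 and 11.73 TPM. MAFK (chr7:1530714-1543043) fell by 1.90 (SE 0.095, limma BH-adjusted p = 5.53e-06), from 49.9, 50.87 and 61.37 TPM to 13.97, 12.79 and 14.25 TPM. DDI2, the protease that activates the NFE2L1 protein, fell by 1.21 and NGLY1, the glycanase that processes it, fell by 0.58.

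Other partners differed by role. Of 11 proteasome-associated enzymes and factors, 8 fell (50.9% of all tested genes did) and 0 rose in limma, also at an unadjusted P under 0.05. These 8 are 72.7%, and the median length of the group was 4994 nt. Of all tested genes of 4000 to 8000 nt, 70.8% fell and 9.23% rose, so the share that fell was near that of genes of such length. UBE3C (chr7:157138913-157269372), a ubiquitin ligase bound to the proteasome, went from 52.37, 47.3 and 47.64 TPM to 12.01, 13.58 and 10.62 TPM, a fall by 1.94 on the log2 scale (SE 0.097, limma BH-adjusted p = 5.53e-06). The deubiquitinase USP14 fell by 1.39 and UCHL5, held on the 19S particle by ADRM1, fell by 1.37. SEM1 (chr7:96481626-96709891), the smallest 19S subunit, rose from 441.2, 492.35 and 401.2 TPM to 898.72, 901.3 and 1028.87 TPM (log2 fold change 1.08, SE 0.088, limma BH-adjusted p = 3.62e-05). POMP (chr13:28659104-28678925), the maturation factor of the core, rose from 140.2, 145.54 and 145.73 TPM to 224.96, 224.82 and 224.5 TPM (log2 fold change 0.64, SE 0.039, limma BH-adjusted p = 1.12e-05). Both sets of libraries were separate. ADRM1 (chr20:62302093-62308862), the ubiquitin receptor RPN13, was at 267.46, 271.49 and 305.82 TPM and at 317.49, 303.86 and 322.82 TPM. Its groups overlapped, and its log2 fold change of 0.16 (SE 0.062, limma BH-adjusted p = 0.0482) lost its call without control replicate 1 or 2 or shFAM111B replicate 1 or 3, at 0.13, 0.14, 0.16 and 0.14 in that order.

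Among the ubiquitin genes, RPS27A, which encodes ubiquitin fused to a ribosomal protein, rose by 1.09 on the log2 scale and the polyubiquitin gene UBB rose by 0.41. Of the ubiquitin-activating enzymes, UBA1 fell by 0.47, and UBA6 (chr4:67612652-67701179) fell by 1.76 (SE 0.21, limma BH-adjusted p = 0.000261), from 16.98, 17.75 and 9.71 TPM to 3.58, 3.57 and 3.48 TPM. Of the 10 substrate shuttles and related factors tested, 7 fell, against 50.9% of all tested genes, and UFD1 rose (0.35). Their median length was 4174.5 nt, and 70.8% of all tested genes of 4000 to 8000 nt fell. The split of the list was 16 higher and 18 lower under median-of-ratios scaling, 14 and 20 under upper-quartile scaling, 17 and 18 with the library median subtracted, 8 and 23 under quantile normalization and 6 and 30 in the protein-coding setting, where the shares of all tested genes were those given above.

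**Figure D4:**
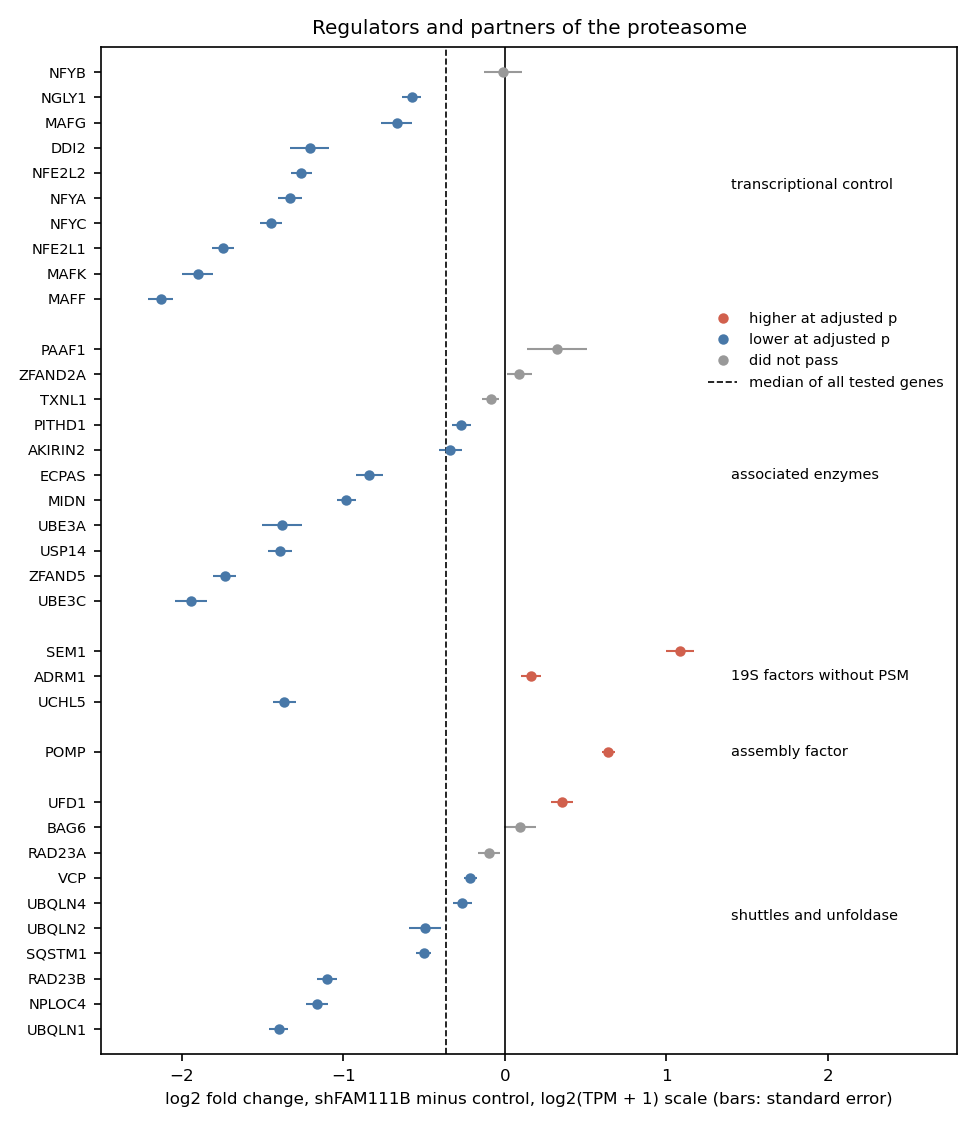
Log2 fold change (shFAM111B minus control, x axis, log2(TPM + 1) scale) with its standard error for the tested regulators and partners outside the group of ubiquitin and its activation, grouped by role, coloured by the limma call, with the median of all tested genes dashed at -0.36. MAFF lies farthest left at -2.13, NFYB alone of the transcriptional control group lies near 0, at -0.01, and SEM1 lies at 1.08.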

How the data were processed

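RNA-seq of Huh7 control and shFAM111B cells was compared, with 3 libraries per group as labelled. The authors deposited TPM per gene and library, with group means, and columns of their own test (a fold ratio, its log2 value, p-values), which were not used here. Per the labels, RSEM, DESeq2 and hg38 were named for the processing, with no versions. The labels name a stranded kit and the study's methods a TruSeq kit. TPM are relative and hold no depth, so no count test was run.

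The filter kept 14394 genes (1 TPM or more in 3 or more libraries). Groups were compared on log2(TPM + 1) in limma 3.58.1 (R 4.3.3; lmFit, eBayes with trend, no covariates), with Benjamini-Hochberg (BH) adjustment over all tested genes, and within-library ratios by exact permutation. On simulated data the fit recovered 141 of 200 changed genes and called 7 unchanged genes. The simulation drew independent normal noise for each gene and changed only 200 of 14394 genes. In the data 21.1% of tested genes rose and 50.9% fell, so the simulation cannot show how the fit behaves under such broad shifts or other scalings. Fewer than 1% of TPM were identical between any pair of libraries, and none was treated as a duplicate.

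Members and lists were chosen with earlier results of these data known. Full values are given for a fixed set of catalytic and activator genes, for up to 3 called members of largest change per class, for members changed by 2-fold, for the 5 called regulators of largest change and for NFE2L1, POMP, ADRM1 and SEM1. Other genes given a value were named after their values were seen. Positions and lengths are from GENCODE v29 (GRCh38), in which 58420 of 60666 identifiers (96.3%) and all 55 members matched. Promoters are from RefSeq. Alternatives covered filter, pseudocount, scaling, length trend, threshold, replicate block and single libraries. Values of some listed regulators are not reported here.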

Additional observations from a re-analysis of the deposited data

How the results depend on the processing

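Scaling and the threshold on the test both moved the counts. Members higher numbered 35 with the library median subtracted and members lower 9 under median-of-ratios scaling, 10 under upper-quartile scaling and 8 with the library median subtracted, against 23 and 20. Tested against a 1.5-fold change in limma, 5 members were higher and 7 lower, and 3 regulators higher and 18 lower. Of all tested genes 7.3% were higher and 27.4% lower in that test. Members up by 2-fold (2 with the deposited TPM) numbered 12, 9, 4, 14 and 0 under median-of-ratios, upper-quartile, quantile, library-median and protein-coding scaling, and 0 to 3 when one library was left out. Members down by 2-fold (4) numbered 2 under the first 4 of these. Regulators higher numbered 16, 14 and 17 under median-of-ratios, upper-quartile and library-median scaling, and regulators lower 18 under the first and the last.

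The member median was 0.078 with no filter, 0.55, 0.52, -0.012, 0.66 and -0.0004 under the 5 scalings in the order above, -0.30 with the length and expression trend removed, and 0.095 to 0.14 without single libraries. The regulator median was -0.54 with a pseudocount of 0.1, -0.081, -0.12, -0.41, 0.030 and -0.63 under the 5 scalings, -0.66 with the trend removed, and -0.57 to -0.47 without single libraries.

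With the trend removed, values passed below 0 for PSMB3 (-0.30), PSMB5 (-0.45), PSMB6 (-0.25), PSMB7 (-0.44), PSME1 (-0.51), PSMC3IP (-0.26), PSMC3 (-0.16), PSMC4 (-0.04), PSMB1 (-0.10), PSMA4 (-0.16) and PSMA7 (-0.73), and for the regulators ADRM1 (-0.46) and POMP (-0.019). The median of all genes was -0.38 in that setting. Only PSMB5, PSMB7, PSME1, PSMA7 and ADRM1 of these lay below it. Under quantile normalization directions turned for PSMB5 (-0.0084), PSMB1 (-0.03), PSMA4 (-0.31), PSMA7 (-0.26) and ADRM1 (-0.027). Among the genes given with full values, PSMB9 turned to 0.056 with the library median subtracted, PSME3IP1 to 0.11, 0.072 and 0.20 under median-of-ratios, upper-quartile and library-median scaling, and PSME4 to -0.047 in the protein-coding setting. The log2 ratio of PSMB8 to PSMB5 differed by 0.026 with a pseudocount of 0.1 and by -0.22 to 0.054 without single libraries. The cause of these changes was not tested.

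With the replicate number as a replicate block, 22 members were higher and 20 lower, and no named gene changed its call. Same-numbered libraries correlated at 0.05, 0.03 and 0.09, under the limit of 0.1 set for pairing. NC1 and NC3 correlated best with KD1 and KD3, but KD2 correlated more with NC1 (0.04) than with NC2. Without KD1 and KD2, an alternative chosen after seeing the data, 23 members were higher and 17 lower. Depth is unknown and limits what can be said of genes near 1 TPM. The trend setting gave no counts, the 1.5-fold test no medians of its own, PSMB9 and FAM111B had no value when 1 TPM was required in every library, and PSMA3-AS1 and PSMG3-AS1 none in the protein-coding setting.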

Other observations

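Of the 42 rows with a PSM symbol that are described as pseudogenes, 30 were at 0 TPM in every library and 1 exceeded 1 TPM anywhere. That row, PSMC1P5, a pseudogene of the ATPase gene PSMC1, was at 99.24 TPM in NC1 and 11.82 TPM in KD1 and at 0 in the other 4 libraries, while PSMC1 itself stood at 291.79 TPM in NC1 and 162.07 TPM in KD1, beside 282.37 and 283.21 TPM in the other controls and 162.44 and 156.95 TPM in the other shFAM111B libraries.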
